A study of Homo sapiens with 10 samples.

Results

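HeyA8 is an established human ovarian cancer cell line, and siNT1 is the non-targeting control siRNA of this study, a duplex whose passenger strand was chemically modified. The siNT1 cells at 24 h and at 48 h after transfection were taken from the labels of siRNA and time. They are 4 of 10 libraries, 2 per time point. No other genetic change is given for the cells, which were reverse transfected with 10 nM siNT1 and a transfection lipid. Both libraries of a time point came from wells of 1 cell line, so p-values measure the spread between wells and libraries. The study changed the medium at 24 h in the wells that were lysed at 48 h, so time since transfection, cell density, fresh medium and time away from the lipid cannot be told apart. The comparison asks what moved in the control cells between the time points at which the siRNAs of the study were sampled. The other 6 libraries, cells with 10 nM siGGGGGC at 24 h and 48 h and with 10 nM siGGCAGU at 48 h, entered the fit. The study reports that both of these siRNAs slowed the growth of HeyA8 cells and lowered their viability against siNT1. The siGGGGGC cells at 48 h against 24 h cover the same hours in 4 libraries that the siNT1 comparison does not use.

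A culture plated at low density lays down matrix and forms contacts as it fills the dish, and its cells divide until space, growth factors or nutrients limit them. Replication-dependent histone mRNAs are made in S phase and end in a stem-loop in place of a poly(A) tail, so they are well measured only in total RNA, as sequenced here. Sterol enzyme genes are driven by the SREBP factors when cells lack cholesterol, and genes such as TXNIP follow glucose through the factor MondoA.

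The labelled cell type was read from its markers. Of 14 markers of ovarian carcinoma and epithelial cells, 8 had enough counts to test. Among them were the keratins KRT7, KRT8 and KRT18 and the Müllerian factor PAX8. KRT19 and EPCAM, also tested, had only 21 to 38 and 25 to 51 counts in a siNT1 library. Of those not tested, CDH1, the epithelial cadherin, had at most 3 counts in a siNT1 library. MUC1 and CLDN3 had at most 2, CLDN4 at most 5 and ESR1 at most 12. MUC16 had 26 counts in 24 h replicate 1 and at most 1 in the others. All 13 mesenchymal markers were tested, led by VIM, which encodes vimentin. The 11 leukocyte markers summed to 8 to 47 counts per library, with CD3E, CD3D and LYZ at 0 in all 4 libraries. Of 7 endothelial markers 4 were tested, and TIE1, a receptor of vessel cells, supplied 1169 to 3298 of 1209 to 3357 counts in the list. In bulk RNA fewer cells of a type and less RNA per cell cannot be told apart. The 13 protein-coding genes of the mitochondrial genome were listed at 0 in every siNT1 library and give no value.

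The siNT1 libraries held 21063521 to 22351927 counts at 24 h and 28034736 to 42428986 at 48 h. RN7SL2 and SNORD3A, small structural RNAs of the signal recognition particle and the nucleolus, took 27.8% and 28.3% of the counts at 24 h and 19.8% and 23.9% at 48 h. The replicates at 48 h lay farther apart than those at 24 h, with an SD of the log2 difference of 0.23 against 0.14 over 9838 genes. Replicate 1 at 24 h stood apart at low counts: 33365 genes had a count there against 25420 to 28654 in the others, and 6240 genes were seen in that library alone. Counts of genes and list members are therefore followed by leave-one-out values, which are those without 24 h replicate 1, without 24 h replicate 2, without 48 h replicate 1 and without 48 h replicate 2, always in this order. Such a fit assumes that the lone library of a time point varies like the other groups.

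Between 24 h and 48 h, 21 of 33 matrix genes, 14 of 25 cholesterol genes and 9 of 18 nutrient-responsive genes rose in siNT1 cells. Of 55 replicative histone genes 37 fell, of 85 ribosomal protein genes 46 and of 25 small structural RNAs 10. Several of these counts dropped with a library left out, as given for each list. Of 16905 genes tested with edgeR, 1584 (9.37%) had an adjusted p below 0.05 and were higher at 48 h (leave-one-out 348, 338, 565 and 2009), and 1217 (7.20%) were lower (leave-one-out 198, 132, 187 and 1519). Below, a gene is said to have passed, to have risen or to have fallen by this rule. The shares of 9.37% and 7.20% are the background for each siNT1 list count by this rule in the main fit. A gene was called when its log2 fold change was also beyond 1, which 180 genes were in the upward direction (1.06%; leave-one-out 99, 82, 89 and 304) and 78 in the downward direction (0.461%; leave-one-out 30, 53, 22 and 112). The higher calls were mostly of protein-coding genes, 145 of 180. The lower calls held 29 long noncoding RNAs, 23 protein-coding genes, 8 small nuclear RNAs and 8 processed pseudogenes. Of the lower calls 54 of 78 had a mean normalised count below 50, against 80 of 180 of the higher, and 24 h replicate 1 is the library with the excess of genes at low counts. Both 48 h libraries lay above both 24 h libraries in 5206 genes (30.8%) and below them in 5214 (30.8%), which is the background for any statement here that the time points do not overlap. The test of edgeR against a log2 fold change of 1 left FN1 alone, with 1 gene higher and 0 lower, where unadjusted p-values below 0.05 numbered 86 and 51. With the trend on gene length and GC content removed, 1132 genes passed higher and 1314 lower, so the split of directions depends on that step. In DESeq2 1315 of the 16905 genes had an adjusted p below 0.05 and were higher, and 1112 were lower. The number of all genes with an unadjusted p below 0.05 for any change in edgeR is not given here. List counts by that rule therefore have no background.

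**Figure D1:**
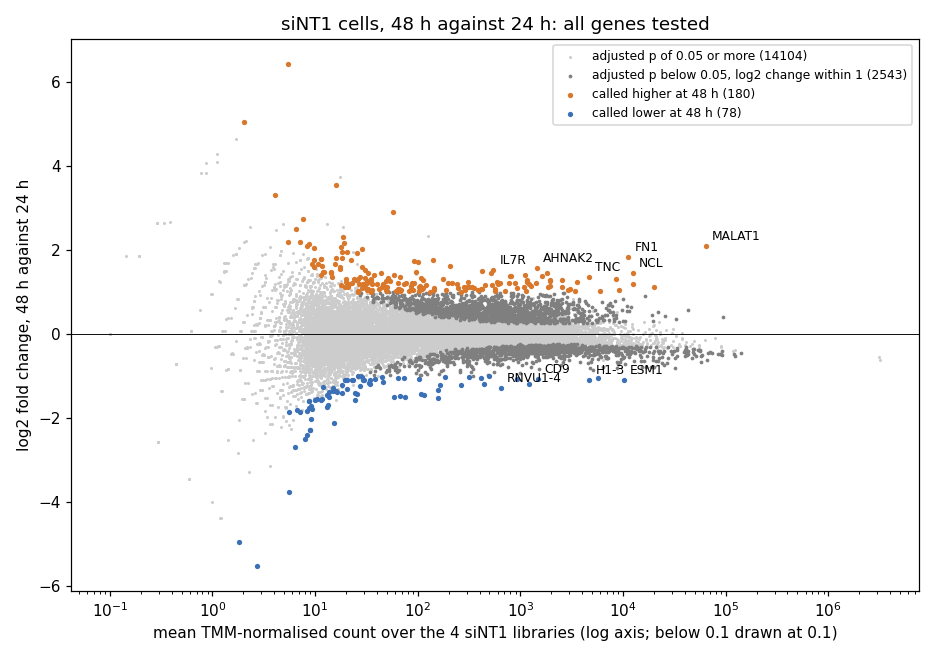
Each point is a gene tested in siNT1 cells, with the mean normalised count over the 4 libraries on a log axis and the log2 fold change of 48 h against 24 h. Orange and blue mark the 180 genes called higher and the 78 called lower, and most blue points lie at low counts.

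The largest rises among abundant genes were in the nuclear noncoding RNA MALAT1 and in genes of the matrix and cell surface. Genes ranked here had to be called, with a mean normalised count of at least 500 and no overlap between the time points. That they do not overlap is therefore no result. MALAT1 (chr11:65497640-65508073 in hg38, GENCODE 44), a long RNA of nuclear speckles, had normalised counts of 24939 and 23820 at 24 h and 135520 and 71354 at 48 h (log2 fold change 2.08 ± 0.25 SE, adjusted p = 1.5e-04). The 48 h libraries were both far above the 24 h libraries, but replicate 1 was well above replicate 2, and the log2 fold change was 1.56 without the first and 2.48 without the second. FN1 (chr2:215360440-215436073) encodes fibronectin, the fibre protein to which cells attach, and its counts were 4958 and 4960 at 24 h and 20024 and 15152 at 48 h (log2 fold change 1.83 ± 0.12 SE, adjusted p = 2.0e-06). The 24 h libraries were nearly equal, and both 48 h libraries were far above them, replicate 1 the more. TNC, which encodes the matrix protein tenascin C, stood at 2629 and 2592 at 24 h and 7682 and 5697 at 48 h (log2 fold change 1.36 ± 0.13 SE, adjusted p = 2.4e-05). FBN1, which encodes the microfibril protein fibrillin 1, stood at 604 and 611 at 24 h and 1798 and 1418 at 48 h (log2 fold change 1.40 ± 0.12 SE, adjusted p = 1.2e-05). In both genes replicate 1 was the higher at 48 h. IL7R, the receptor chain for interleukin 7, had 268 and 293 at 24 h and 750.5 and 863 at 48 h (log2 fold change 1.52 ± 0.12 SE, adjusted p = 1.2e-05), and here replicate 2 was the higher at 48 h.

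CLDN1, which encodes a tight junction strand protein, had counts of 436 and 471 at 24 h and 1317 and 1035 at 48 h (log2 fold change 1.37 ± 0.12 SE, adjusted p = 1.2e-05). IGF2R, the receptor that carries mannose 6-phosphate enzymes to lysosomes, had 908 and 884 at 24 h and 3057 and 1614 at 48 h (log2 fold change 1.38 ± 0.20 SE, adjusted p = 6.8e-04). Its 48 h libraries were far apart, and the log2 fold change was 0.86 without 48 h replicate 1. The giant scaffold gene AHNAK2 rose by 1.56 on the log2 scale and EHBP1L1 by 1.45. The translation initiation factor gene EIF5B rose by 1.46, HNRNPA0, which encodes an RNA-binding protein, by 1.38, and NCL, which encodes the nucleolar protein nucleolin, by 1.44. The counts of NCL were 6796 and 6564 at 24 h and 20237 and 16042 at 48 h, with an adjusted p of 0.0064. Leaving out either 24 h library took NCL and EHBP1L1 past 0.05, to at most 0.074 and 0.056, with log2 fold changes of at least 1.27 and 1.41 in any leave-one-out fit.

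Only 7 abundant genes met the same rule in the downward direction. ESM1 (chr5:54977867-55022671), a secreted proteoglycan also called endocan, had counts of 14251 and 13720 at 24 h and 6166 and 6877 at 48 h (log2 fold change -1.10 ± 0.09 SE, adjusted p = 1.2e-05). CD9, a tetraspanin of the cell surface, had 2002 and 2033 at 24 h and 918 and 985 at 48 h (log2 fold change -1.08 ± 0.10 SE, adjusted p = 1.8e-05). Replicates of both genes lay close together and the time points were far apart. The other 5 were histone genes and small nuclear RNAs. The linker histone gene H1-3 had 6549 and 6236 at 24 h and 2723 and 3276 at 48 h (log2 fold change -1.09 ± 0.10 SE, adjusted p = 2.4e-05). The core histone gene H2AC14 had 6759 and 8652 at 24 h and 4197 and 3271 at 48 h (log2 fold change -1.05 ± 0.14 SE, adjusted p = 5.5e-04). H4C12 had 1144 and 1381 at 24 h and 534 and 659.9 at 48 h (log2 fold change -1.08 ± 0.18 SE, adjusted p = 0.0018). Of these 3 histone genes, H2AC14 varied most between replicates. RNVU1-4, a variant U1 RNA, stood at 952 and 879 at 24 h and 321 and 428 at 48 h (log2 fold change -1.28 ± 0.15 SE, adjusted p = 1.3e-04), and the U2 copy RNU2-63P at 1622 and 1791 at 24 h and 600.2 and 886 at 48 h (log2 fold change -1.19 ± 0.14 SE, adjusted p = 1.5e-04). Both belong to families of near-identical copies, so the assignment of reads to them is uncertain.

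**Figure D2:**
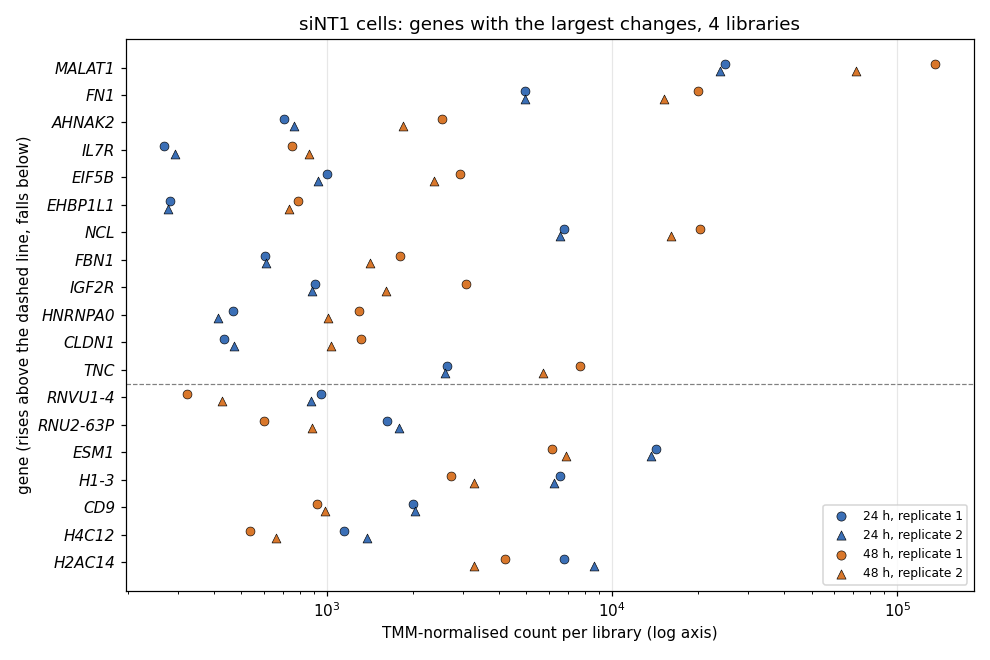
Normalised counts of the 12 largest rises and the 7 falls in each siNT1 library, on a log axis, with 24 h in blue, 48 h in orange, circles for replicate 1 and triangles for replicate 2. The genes were chosen to have no overlap between the time points. In 11 of the 12 rises replicate 1 at 48 h is the higher.

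Among the gene lists examined, those of the extracellular matrix had the highest median change. Of 33 matrix genes tested, 21 rose (leave-one-out 12, 13, 15 and 22) and 1 fell. Of all genes 9.37% rose and 7.20% fell. The median log2 fold change was 0.69 against -0.0039 over all genes. Besides FN1, TNC and FBN1, HAS2, the hyaluronan synthase, had 1166 and 1241 at 24 h and 2502 and 2829 at 48 h (log2 fold change 1.15 ± 0.10 SE, adjusted p = 1.2e-05). The basement membrane collagen genes COL4A1 and COL4A2 changed by 1.29 (adjusted p = 3.1e-05) and 0.94 (adjusted p = 5.5e-04), and THBS1, the gene of thrombospondin 1, by 1.23 (adjusted p = 1.2e-04). These 3 were chosen after their values were seen. The summed normalised counts of the matrix genes were 47630 and 49593 at 24 h and 80638 and 71191 at 48 h, so both 48 h libraries were above both 24 h libraries. FN1, with means of 4959 at 24 h and 17588 at 48 h, and TNC, with 2611 and 6689, weigh heavily in this sum.

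Among genes that remodel the matrix or bind cells to it, some rose and most did not pass. Of 17 genes for matrix proteases, plasminogen activators and their inhibitors, 8 rose (leave-one-out 3, 3, 4 and 10) and 0 fell, with a median log2 fold change of 0.41. MMP14, the membrane-bound protease that activates other matrix proteases, had 2232 and 2327 at 24 h and 4806 and 4385 at 48 h (log2 fold change 1.01 ± 0.09 SE, adjusted p = 1.2e-05). PLAU, the urokinase gene, had 3508 and 3501 at 24 h and 5834 and 5434 at 48 h (log2 fold change 0.68 ± 0.11 SE, adjusted p = 0.0013). The protease gene ADAMTS1 rose by 0.45 (adjusted p = 0.0055). Of 23 genes of TGF-beta and BMP signalling, 7 rose (leave-one-out 3, 3, 6 and 10) and 0 fell. The BMP antagonist gene GREM1 had 1396 and 1556 at 24 h and 3639 and 3505 at 48 h (log2 fold change 1.28 ± 0.10 SE, adjusted p = 1.2e-05). LTBP2, which encodes a matrix protein related to the fibrillins, rose by 1.07 (adjusted p = 1.3e-04), and TGFBR2, a TGF-beta receptor, by 0.69 (adjusted p = 0.0019). Of 13 integrin subunits, 5 rose (leave-one-out 1, 1, 2 and 6) and 0 fell, led by ITGA3, a subunit of a laminin receptor, at 0.71 (adjusted p = 4.4e-04). Of 22 junction and adhesion genes, 8 rose (leave-one-out 4, 3, 4 and 9) and 0 fell, among them CLDN1, the gap junction gene GJC1 at 0.59 (adjusted p = 9.7e-04), the tight junction scaffold TJP1 at 0.55 (adjusted p = 0.0029) and the N-cadherin gene CDH2 at 0.46 (adjusted p = 0.0042). Among the genes of this paragraph the adjusted p reached 0.087 for ADAMTS1 without 24 h replicate 1 and 0.079 for CDH2 without 24 h replicate 2. With the length and GC trend removed, ITGA3 was at 0.41 (adjusted p = 0.0049). For these lists, genes lower at an unadjusted p below 0.05 in edgeR, and at an adjusted p below 0.05 in DESeq2, numbered 1 and 0 for proteases, 0 and 0 for TGF-beta genes, 0 and 0 for integrins and 2 and 0 for junction genes.

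Many genes of cholesterol synthesis and uptake rose. Of 25 tested, 14 rose (leave-one-out 7, 7, 12 and 13), 0 fell and 0 were lower at an unadjusted p below 0.05. The median log2 fold change was 0.44, and DESeq2 gave 15 higher and 0 lower. HMGCS1, the synthase that starts the pathway, had 1738 and 1782 at 24 h and 2859 and 2961 at 48 h (log2 fold change 0.73 ± 0.08 SE, adjusted p = 1.1e-04). LSS, which closes the sterol rings, had 692 and 720.1 at 24 h and 1244 and 1206 at 48 h (log2 fold change 0.79 ± 0.09 SE, adjusted p = 1.4e-04). Both genes were named for a low p, so that their replicates were close and the time points did not overlap is no result. SREBF2, the factor that drives these genes, had 631 and 610.1 at 24 h and 1101 and 953 at 48 h (log2 fold change 0.72 ± 0.11 SE, adjusted p = 7.5e-04). Of 12 fatty acid synthesis genes 5 rose (leave-one-out 2, 1, 3 and 7) and 0 fell. SCD, the desaturase that makes oleic acid, had 3961 and 4005 at 24 h and 8734 and 7439 at 48 h (log2 fold change 1.02 ± 0.10 SE, adjusted p = 2.4e-05). The desaturases FADS2 and FADS1 changed by 0.68 (adjusted p = 0.0073) and 0.35 (adjusted p = 0.011) and the malic enzyme gene ME1 by 0.41 (adjusted p = 0.016). Of 9 genes of sterol efflux and lipid handling 3 rose and 0 fell (leave-one-out 2, 1, 2 and 3 rises). They were CPT1A, the gate of fatty acid burning, at 0.61 (adjusted p = 0.0024), ANGPTL4 at 0.73 (adjusted p = 0.0047) and the cholesterol exporter ABCA1 at 0.63 (adjusted p = 0.015). With a library left out, the adjusted p reached 0.091 for FADS2 without 24 h replicate 2, 0.13 for FADS1 without 24 h replicate 1, 0.17 for ME1 without 48 h replicate 1, 0.051 for CPT1A without 24 h replicate 2, 0.075 for ANGPTL4 without 24 h replicate 2 and 0.19 for ABCA1 without 24 h replicate 1. Without 48 h replicate 1, ME1 was at 0.26. With the length and GC trend removed, FADS2 was at 0.41 (adjusted p = 0.076) and FADS1 at 0.19 (adjusted p = 0.15). Lower at an unadjusted p below 0.05 in edgeR, and by the adjusted p of DESeq2, were 0 and 0 for fatty acid genes and 0 and 0 for lipid handling genes.

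RefSeq promoter windows (GRCh38.p14, 250 bases before to 50 after the start) were found for 18 of the 25 cholesterol genes, with 23 windows. The CCAAT box, read as CCAAT on either strand, was in 18 of the 23 (78.3%) and in 34.6% of all 35116 promoter windows. It was also in 76.9% of the windows of mitosis genes and 83% of those of replicative histone genes, lists with more falls than rises. In the windows of matrix genes, which mostly rose, it was in 34.4%. The core of the sterol regulatory element, CACCCCAC on either strand, was in 1 (4.35%) and in 2.79% of all. A match is a description of letters and not a binding site. Of the genes that rose with the box upstream of the start, the 3 with the lowest p are shown. The box is in capitals, on the strand that reads it.
HMGCS1: ccggcttctaCCAATcaaaaggaaa
LSS: gcccacgcaaCCAATcagagcgccg
SREBF2: ctcatctcagCCAATgggcgagcga
The windows lie at chr5:43313553-43313577 on the plus strand, chr21:46228910-46228934 on the plus strand and chr22:41832989-41833013 on the minus strand.

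Targets of FOXO factors and MondoA, here called nutrient-responsive, and genes of growth arrest, p53 and the lysosome rose in part. Of 18 targets of FOXO factors and MondoA, 9 rose (leave-one-out 3, 3, 6 and 8) and 0 fell, with a median log2 fold change of 0.60. TXNIP, which restrains glucose uptake and binds thioredoxin, had 709 and 783 at 24 h and 1450 and 1574 at 48 h (log2 fold change 1.02 ± 0.10 SE, adjusted p = 3.6e-05). CITED2, which encodes a coregulator of transcription, had 251 and 289 at 24 h and 612 and 518 at 48 h (log2 fold change 1.06 ± 0.13 SE, adjusted p = 1.5e-04). FOXO3 itself rose by 0.57 (adjusted p = 0.0025) and YPEL5 by 0.44 (adjusted p = 0.011). Of 21 genes of growth arrest, 8 rose (leave-one-out 3, 3, 3 and 7) and 1 fell, HES1, a NOTCH target. The antiproliferative genes TOB2 and TOB1 rose by 1.00 (adjusted p = 5.6e-04) and 0.75 (adjusted p = 0.0024), and GAS6, a secreted ligand of AXL, by 0.93 (adjusted p = 0.001), and CCND1, a cyclin that drives entry into the cycle, by 0.45 (adjusted p = 0.0071). Of 28 p53 targets, 9 rose (leave-one-out 1, 2, 4 and 9) and 0 fell, led by TP53INP1 with 189.7 and 177 at 24 h and 459 and 409 at 48 h (log2 fold change 1.24 ± 0.13 SE, adjusted p = 4.1e-05). The death gene BBC3 rose by 0.77 (adjusted p = 0.0045), ZMAT3 by 0.70 (adjusted p = 0.0045) and SPATA18 by 0.63 (adjusted p = 0.018). Of 30 lysosome and autophagy genes, 10 rose (leave-one-out 2, 2, 5 and 9) and 1 fell, with LAMP1, a lysosomal membrane protein, at 0.79 (adjusted p = 1.3e-04) and GRN, progranulin, at 0.75 (adjusted p = 0.0013). Leaving out a library took the adjusted p to 0.14 for YPEL5 without 24 h replicate 1, 0.092 for CCND1 without 24 h replicate 1, 0.089 for BBC3 without 24 h replicate 1, 0.061 for ZMAT3 without 24 h replicate 2 and 0.14 for SPATA18 without 24 h replicate 1. Without 48 h replicate 1, ZMAT3 was at 0.39. By the unadjusted p of edgeR and the adjusted p of DESeq2, the genes that were lower numbered 0 and 0 for FOXO and MondoA targets and 0 and 0 for p53 targets.

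Genes of several signalling pathways rose in part. Of 27 targets and regulators of YAP and TEAD, 12 rose (leave-one-out 4, 4, 6 and 14) and 1 fell. F3, tissue factor, fell, with 4859 and 4872 at 24 h and 3292 and 3429 at 48 h (log2 fold change -0.53 ± 0.08 SE, adjusted p = 8.2e-04). AMOTL2, TEAD1 and WWTR1 rose by 0.70 (adjusted p = 5.6e-04), 0.62 (adjusted p = 7.5e-04) and 0.84 (adjusted p = 0.0031). Of 25 immediate early and AP-1 genes, 10 rose (leave-one-out 6, 7, 8 and 11) and 0 fell. MYC had 1468 and 1486 at 24 h and 2560 and 2360 at 48 h (log2 fold change 0.74 ± 0.09 SE, adjusted p = 1.4e-04). JUN had 1704 and 1680 at 24 h and 3123 and 2635 at 48 h (log2 fold change 0.77 ± 0.10 SE, adjusted p = 2.5e-04). JUNB rose by 1.36 (adjusted p = 4.2e-04). Of 22 NF-kappaB and inflammatory genes, 7 rose (leave-one-out 4, 5, 6 and 7) and 1 fell. Among the rises were NFKBIZ at 0.66 (adjusted p = 4.2e-04), the apoptosis inhibitor BIRC3 at 0.76 (adjusted p = 5.5e-04), NFKB2 at 1.04 (adjusted p = 0.0011) and RELB at 0.97 (adjusted p = 0.0023). Of 46 interferon-stimulated genes, 6 rose (leave-one-out 3, 1, 4 and 7) and 2 fell, a share of rises near the background. EIF2AK2, the sensor of double-stranded RNA, had 569 and 610.1 at 24 h and 1251 and 974 at 48 h (log2 fold change 0.91 ± 0.14 SE, adjusted p = 0.001). Among these genes, leaving out a library raised the adjusted p to 0.054 for WWTR1 without 24 h replicate 2. The lower genes by the unadjusted p of edgeR and by DESeq2 were 3 and 0 for AP-1 genes.

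Of 27 NRF2 and antioxidant genes, 8 rose (leave-one-out 1, 3, 6 and 8) and 0 fell. FTH1, a ferritin chain with many processed copies in the genome and therefore an uncertain count, had 111 and 147 at 24 h and 325 and 271 at 48 h (log2 fold change 1.21 ± 0.16 SE, adjusted p = 3.9e-04). The reductases AKR1C1 and AKR1C3 changed by 0.68 (adjusted p = 0.0024) and 0.60 (adjusted p = 0.0043). Of 25 genes driven by HIF, 8 rose (leave-one-out 4, 2, 4 and 7) and 1 fell, with the factor EPAS1 at 1.20 (adjusted p = 0.001) and PFKFB3 at 0.49 (adjusted p = 0.0033). VEGFA, the vessel growth factor, fell by 0.48. Metal-handling genes had 3 rises of 11 (leave-one-out 1, 2, 2 and 4). The metallothionein MT2A had 11526 and 11299 at 24 h and 18655 and 23685 at 48 h (log2 fold change 0.89 ± 0.16 SE, adjusted p = 0.0028) and the zinc exporter SLC30A1 at 0.58 (adjusted p = 0.0022). NOTCH and WNT genes had 7 rises and 2 falls of 19 (rises leave-one-out 3, 1, 5 and 6), with the receptor NOTCH2 at 0.88 (adjusted p = 9.0e-04). ERK feedback genes had 1 rise of 20 (leave-one-out 0, 0, 0 and 5), DUSP6 at 0.31 (adjusted p = 0.038). Clock genes had 1 of 16 (leave-one-out 0, 0, 0 and 0), BHLHE40 at 0.41 (adjusted p = 0.04). Glycolysis had 3 rises and 1 fall of 22 (rises leave-one-out 0, 1, 1 and 4), the fall being TPI1 at -0.40 (adjusted p = 0.023). Of all genes 9.37% rose, so the rises in the ERK, clock and glycolysis lists are near the background. Marker genes of cell identity had 2 rises and 2 falls among 8 epithelial genes, with KRT7 at 0.50 (adjusted p = 0.0022) and KRT18 at -0.30 (adjusted p = 0.031). There were 5 rises and 0 falls among 13 mesenchymal genes, with ZEB2 at 0.55 (adjusted p = 0.0055). The median log2 fold change of this list was 0.033, and FN1 and CDH2, described above, are among its rises. Epithelial rises were leave-one-out 0, 1, 1 and 2, epithelial falls 0, 2, 0 and 3, and mesenchymal rises 3, 1, 5 and 5. Of the endothelial genes TIE1 changed by 0.34 (adjusted p = 0.026) and PECAM1 by -2.50 (adjusted p = 0.015), the latter from 19.1 and 7.86 at 24 h and 3.1 and 1.72 at 48 h, with the highest count in 24 h replicate 1. With 1 library fewer, the adjusted p was 0.058 for AKR1C1 without 24 h replicate 1, 0.081 for AKR1C3 without 24 h replicate 1, 0.07 for PFKFB3 without 24 h replicate 2, 0.052 for SLC30A1 without 24 h replicate 1, 0.19 for DUSP6 without 24 h replicate 1, 0.25 for BHLHE40 without 24 h replicate 2, 0.17 for TPI1 without 24 h replicate 2, 0.055 for KRT7 without 24 h replicate 1, 0.19 for KRT18 without 24 h replicate 1, 0.067 for ZEB2 without 24 h replicate 1, 0.15 for TIE1 without 24 h replicate 1 and 0.26 for PECAM1 without 24 h replicate 1. With the length and GC trend removed, TIE1 was at 0.088 (adjusted p = 0.53), KRT7 at 0.30 (adjusted p = 0.057) and PFKFB3 at 0.32 (adjusted p = 0.019). DUSP6 and BHLHE40 did not pass in DESeq2 (adjusted p = 0.068 and 0.097), and KRT18 did not pass without a filter on low counts (adjusted p = 0.20). Genes lower by the unadjusted p of edgeR and by DESeq2 numbered 3 and 1 for NRF2 genes, 0 and 0 for metal genes, 0 and 0 for ERK feedback genes, 1 and 0 for clock genes and 0 and 0 for mesenchymal genes.

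**Figure D3:**
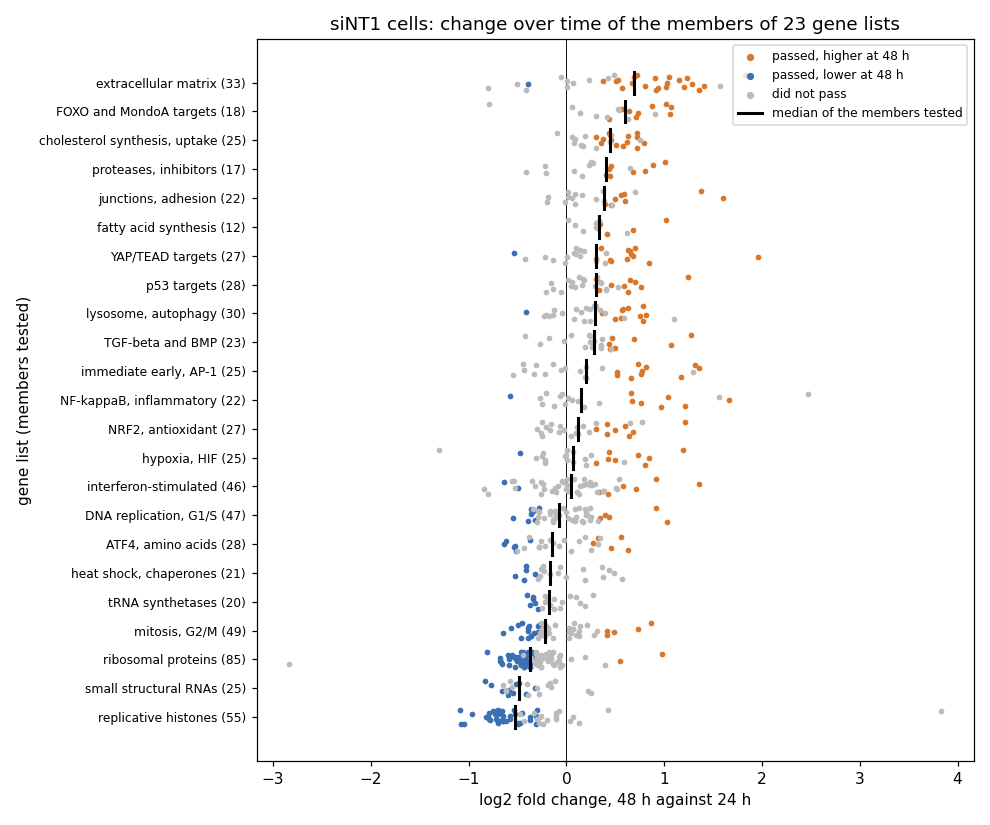
Each point is a tested member of 1 of 23 gene lists, placed by its log2 fold change of 48 h against 24 h in siNT1 cells, with orange for members that rose, blue for members that fell and grey for the rest. The black bar is the list's median, from 0.69 for matrix genes down to -0.52 for replicative histones.

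Replication-dependent histone genes fell. Of 55 tested, 37 fell (leave-one-out 32, 16, 31 and 35) and 0 rose, with 0 higher at an unadjusted p below 0.05 and DESeq2 giving 37 lower and 0 higher, against 7.20% of all genes lower. The median log2 fold change was -0.52. The summed normalised counts of the histone genes were 609770 and 656960 at 24 h and 417140 and 442890 at 48 h, with no overlap between the time points. H3C7 had 21381 and 21346 at 24 h and 12435 and 12388 at 48 h (log2 fold change -0.78 ± 0.10 SE, adjusted p = 2.6e-04). H4C11 had 615 and 655 at 24 h and 312 and 335 at 48 h (log2 fold change -0.97 ± 0.12 SE, adjusted p = 3.0e-04). The replicates of both genes were close together. All core types and the linker type had members that fell, with H1-3, H2AC14 and H4C12 described above. Many copies of a core histone are near-identical in their coding part, so the count of a single copy is less certain than that of the family. In RefSeq promoter windows of 17 H2B genes the octamer ATTTGCAT, the site class read by POU factors, was found on either strand in 14 of 19 windows (73.7%), in 41.5% of the windows of all histone genes tested and in 1.77% of all promoter windows. The CCAAT box was in 83% of the histone windows. Windows of 26 bases are shown for the 4 H2B genes with the octamer upstream and the lowest p, the octamer in capitals.
H2BC3: aaattccatATTTGCATaaaccccac
H2BC8: gaattctttATTTGCATgaaaggcct
H2BC7: aatcacctaATTTGCATaccacaggg
H2BC10: gccagcctcATTTGCATatacacgag
The windows lie at chr6:26043817-26043842 on the minus strand, chr6:26216720-26216745 on the minus strand, chr6:26199396-26199421 on the plus strand and chr6:26272877-26272902 on the plus strand. H2BC3 had 8187 and 7865 at 24 h and 4079 and 5177 at 48 h (log2 fold change -0.79 ± 0.12 SE, adjusted p = 8.9e-04). The others changed by -0.69 (adjusted p = 9.0e-04), -0.80 (adjusted p = 9.7e-04) and -0.65 (adjusted p = 0.0011) in the order shown.

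Some cell cycle genes fell, and most did not pass. Of all genes 9.37% rose and 7.20% fell, so the rises among mitosis and replication genes are near the background. Of 49 mitosis genes 15 fell (leave-one-out 2, 2, 2 and 18) and 5 rose, with a median log2 fold change of -0.22. SPC24, a kinetochore protein, had 2693 and 2769 at 24 h and 1549 and 1928 at 48 h (log2 fold change -0.65 ± 0.11 SE, adjusted p = 0.002). PTTG1, the securin that holds sister chromatids, had 8347 and 7933 at 24 h and 4797 and 6213 at 48 h (log2 fold change -0.56 ± 0.11 SE, adjusted p = 0.0043). The cyclin CCNA2 changed by -0.46 (adjusted p = 0.0051). INCENP, a scaffold of the Aurora B complex, rose, with 425 and 431 at 24 h and 873 and 685 at 48 h (log2 fold change 0.86 ± 0.13 SE, adjusted p = 0.001). Of 47 DNA replication genes 8 fell (leave-one-out 0, 0, 1 and 10) and 5 rose, and the median was -0.07, which turned to the other sign without a filter on low counts and without 48 h replicate 2. UHRF1, which copies DNA methylation marks, rose, with 1173 and 1134 at 24 h and 2312 and 2051 at 48 h (log2 fold change 0.92 ± 0.14 SE, adjusted p = 0.001). The primase PRIM1 stood at -0.55 (adjusted p = 0.0053) and the clamp loader RFC4 at -0.35 (adjusted p = 0.012), and RPA1 at 1.03 (adjusted p = 0.013). In leave-one-out fits the adjusted p reached 0.059 for PTTG1 without 24 h replicate 1, 0.087 for CCNA2 without 24 h replicate 2, 0.067 for PRIM1 without 24 h replicate 2, 0.12 for RFC4 without 48 h replicate 1 and 0.16 for RPA1 without 48 h replicate 1. Without 48 h replicate 1, RPA1 was at 0.55, and without a filter on low counts RFC4 did not pass (adjusted p = 0.13). The cell cycle homology region, TTTGAA on either strand, was in 33 of 52 windows of 42 mitosis genes (63.5%), 15.2% of all promoter windows, 9.38% of the windows of matrix genes and 35.8% of those of histone genes. It is shown in capitals for the 3 mitosis genes that fell with the lowest p and the motif upstream, which were chosen after their values were seen.
CEP55: ggctgccgccTTTGAAgggcggagag
HMMR: tgtggggagaTTTGAAtttgaaaccg
CDK1: gtataataaaTTTGAActgtgccaat
In HMMR another copy of the motif follows directly, in lower case. The windows lie at chr10:93496486-93496511 on the minus strand, chr5:163460594-163460619 on the plus strand and chr10:60778160-60778185 on the plus strand, and the genes changed by -0.36 (adjusted p = 0.0091), -0.49 (adjusted p = 0.011) and -0.45 (adjusted p = 0.016).

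Among genes of translation and protein folding, ribosomal proteins had the most falls. The background for the list counts here is 9.37% of all genes higher and 7.20% lower. Of 85 ribosomal protein genes 46 fell and 2 rose, RPL28 and RPLP1, with a median log2 fold change of -0.37. The count of falls moved with single libraries (leave-one-out 4, 2, 4 and 59), and the median ran from -0.48 to -0.24 over 12 alternatives. RPL22L1 had 40544 and 42255 at 24 h and 20568 and 26435 at 48 h (log2 fold change -0.82 ± 0.13 SE, adjusted p = 0.0016). RPS3A had 3229 and 3154 at 24 h and 1824 and 2195 at 48 h (log2 fold change -0.67 ± 0.12 SE, adjusted p = 0.0022). RPL21 and RPL9 changed by -0.53 (adjusted p = 0.0025) and -0.43 (adjusted p = 0.0049). These genes have many processed copies in the genome, so reads assigned to them are uncertain. Of 20 aminoacyl-tRNA synthetases 6 fell and 0 rose (leave-one-out 0, 0, 0 and 7 falls), led by NARS1 at -0.40 (adjusted p = 0.01). Of 28 ATF4 and amino acid genes 5 rose and 6 fell (falls leave-one-out 3, 2, 2 and 6). ATF4 itself had 7806 and 8020 at 24 h and 5237 and 5676 at 48 h (log2 fold change -0.54 ± 0.09 SE, adjusted p = 0.0017). The serine synthesis gene PHGDH changed by -0.61 (adjusted p = 0.0022) and the glutamine carrier SLC1A5 by 0.55 (adjusted p = 0.0011). Of 20 chaperones and sensors of the endoplasmic reticulum 3 fell and 1 rose (falls leave-one-out 1, 1, 2 and 2). HSPA5, the main chaperone there, had 18112 and 20458 at 24 h and 11585 and 10656 at 48 h (log2 fold change -0.79 ± 0.09 SE, adjusted p = 1.4e-04). Of 21 heat shock genes 5 fell and 0 rose (falls leave-one-out 0, 0, 0 and 7), with the chaperonin CCT2 at -0.41 (adjusted p = 0.0098). Of 33 ribosome assembly genes 5 rose and 9 fell (falls leave-one-out 0, 0, 0 and 8). POLR1A and MYBBP1A changed by 0.63 (adjusted p = 0.0018) and 0.37 (adjusted p = 0.01) and POLR1C by -0.40 (adjusted p = 0.012). The adjusted p of a leave-one-out fit was as high as 0.054 for RPL21 without 24 h replicate 2, 0.069 for RPL9 without 24 h replicate 1, 0.15 for NARS1 without 24 h replicate 2, 0.1 for CCT2 without 24 h replicate 2, 0.13 for MYBBP1A without 24 h replicate 1 and 0.11 for POLR1C without 48 h replicate 1. With the length and GC trend removed, MYBBP1A was at 0.14 (adjusted p = 0.30), and POLR1A, which still passed, was at 0.39. Genes higher by the unadjusted p of edgeR and by DESeq2 numbered 2 and 0 for tRNA synthetases and 4 and 0 for heat shock genes.

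Some small structural RNAs and some host genes of small nucleolar RNAs fell, and most members of both lists did not pass. Of 25 structural RNAs 10 fell (leave-one-out 4, 3, 3 and 15) and 0 rose, with a median log2 fold change of -0.48. SNORD3B-1, a copy of the U3 nucleolar RNA, had 1903 and 2020 at 24 h and 928 and 1271 at 48 h (log2 fold change -0.83 ± 0.14 SE, adjusted p = 0.002). RNU5D-1, a U5 copy, had 1168 and 1181 at 24 h and 678 and 808 at 48 h (log2 fold change -0.66 ± 0.11 SE, adjusted p = 0.0021). The variant U1 RNA RNVU1-7 changed by -0.77 (adjusted p = 0.0026). They come in near-identical copies, so their counts depend on read assignment. Their share of a library was 28.8% and 29.3% at 24 h and 20.7% and 24.9% at 48 h. Leaving them out gave 179 genes called higher and 80 lower. Of 28 host genes and long noncoding RNAs 11 fell (leave-one-out 3, 4, 4 and 14) and 2 rose, MALAT1 and TUG1. SNHG1 had 10674 and 10887 at 24 h and 5980 and 7662 at 48 h (log2 fold change -0.66 ± 0.11 SE, adjusted p = 0.0013). SNHG15 changed by -0.52 (adjusted p = 0.0028) and TUG1 by 0.89 (adjusted p = 0.0021). Each of these named RNAs kept an adjusted p below 0.05 with any 1 siNT1 library left out. RNAs higher by the unadjusted p of edgeR and by DESeq2 numbered 0 and 0 for structural RNAs.

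Gene length and base composition moved with the change over time. Protein-coding genes were put into 4 bins of 3106 to 3109 genes. From the shortest to the longest bin by exon length the median log2 fold change was -0.076, 0.0081, 0.050 and 0.11. From the lowest to the highest bin of GC content it was -0.085, -0.013, 0.063 and 0.18. The difference between both 48 h replicates ran the same way, from -0.07 to 0.09 over length and from -0.04 to 0.10 over GC content, while both 24 h replicates differed by -0.034 to -0.0037 over both. Some lists that rose and fell differ in length. The median exon length was 9589 bases for matrix genes and 4784 for cholesterol genes, against 497 for histone genes and 3188 for ribosomal protein genes. Other lists went against this order. Host genes and long noncoding RNAs, with 11 falls and 2 rises, had a median of 8631, and tRNA synthetases, with 6 falls and 0 rises, 6118. Immediate early and AP-1 genes, with 10 rises and 0 falls, had 3821, and NF-kappaB genes, with 7 rises and 1 fall, 3201.5. With a smooth trend on length and GC content removed, 19 matrix genes rose and 3 fell, 14 cholesterol genes rose, 33 histone genes fell and 52 ribosomal protein genes fell.

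**Figure D4:**
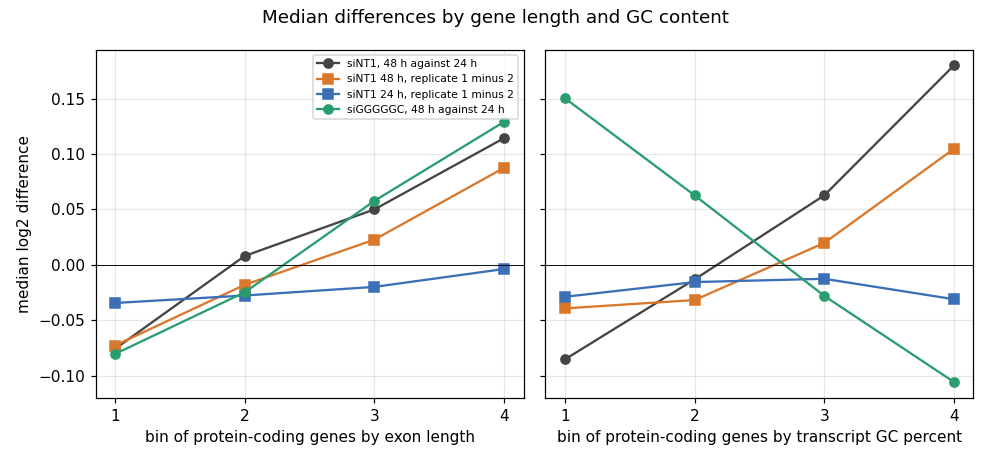
Median log2 differences over 4 bins of protein-coding genes by exon length (left) and by GC content (right). In siNT1 cells the change over time (dark) rises across both, and the difference between both 48 h replicates (orange) rises with it, while siGGGGGC cells (green) rise over length and fall over GC content.

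Cells with siGGGGGC over the same hours share no library with the siNT1 comparison. The study reports siGGGGGC as toxic to HeyA8 cells, so they are not a further control culture. There 1225 genes (7.25%) were called higher at 48 h and 1124 (6.65%) lower. Of the 180 genes called higher with siNT1, 51 (28.3% of these, 4.16% of the siGGGGGC calls) were called higher with siGGGGGC and 6 lower, and of the 78 called lower, 22 (28.2%, and 1.96% of the siGGGGGC calls) were called lower and 7 higher. The change over time differed between the transfections, by the interaction test of edgeR, in 71 of the 180 and in 28 of the 78. These genes were picked for their siNT1 change, which is itself part of the interaction contrast. The share of all genes that passed the interaction test is not given here, so the counts are a description.

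CLDN1 and MALAT1 rose and CD9 fell in both transfections. With siGGGGGC the log2 fold changes were 1.72 for CLDN1, 1.38 for MALAT1 and -0.96 for CD9. The differences, siNT1 minus siGGGGGC, were -0.34 ± 0.17 SE, adjusted p = 0.14 for CLDN1, 0.70 ± 0.33 SE, adjusted p = 0.13 for MALAT1 and -0.12 ± 0.13 SE, adjusted p = 0.53 for CD9. The CLDN1 difference passed at -0.51 without 48 h replicate 1, and the MALAT1 difference passed at 1.11 without 48 h replicate 2 and at 0.84 without a filter on low counts. A p above 0.05 does not show that the changes were alike. IGF2R also rose, by 1.13, and its difference ran from -0.27 without 48 h replicate 1 to 0.65 without 48 h replicate 2. Of the matrix genes described above, FN1 had siGGGGGC counts of 1787 and 1830 at 24 h and 1268 and 1402 at 48 h. TNC had 1406 and 1500 at 24 h and 472 and 542 at 48 h. Both genes were lower at 48 h with siGGGGGC and higher with siNT1. The difference was 2.26 ± 0.17 SE, adjusted p = 2.9e-07 for FN1 and 2.88 ± 0.19 SE, adjusted p = 9.6e-08 for TNC. FBN1 rose in both transfections, by 0.42 with siGGGGGC, with a difference of 0.98 ± 0.17 SE, adjusted p = 5.5e-04. HAS2 stood at -0.20 with siGGGGGC, with a difference of 1.34 ± 0.18 SE, adjusted p = 5.7e-05. By an adjusted p below 0.05 alone, 5 of 33 matrix genes rose and 9 fell with siGGGGGC. The shares of all genes given above for siGGGGGC are of called genes, a stricter rule. The share by an adjusted p below 0.05 alone is not given here. The siGGGGGC list counts of this paragraph therefore have no background and are a description. Of 55 histone genes 50 fell and 3 rose with siGGGGGC, with a median log2 fold change of -1.84. H1-3 changed by -2.75 there, a difference of 1.66 ± 0.14 SE, adjusted p = 1.2e-06. H4C11 changed by -1.08, a difference of 0.11 ± 0.17 SE, adjusted p = 0.68, and the difference for H4C12 was -0.07 ± 0.25 SE, adjusted p = 0.86. The difference of the list as a whole was not tested. All 49 mitosis genes fell with siGGGGGC, with a median of -1.02. Of 25 cholesterol genes 13 rose and 5 fell. Of 18 FOXO and MondoA targets 13 rose and 1 fell, and TXNIP, at -0.61, went the other way from siNT1, a difference of 1.63 ± 0.17 SE, adjusted p = 7.9e-06.

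**Figure D5:**
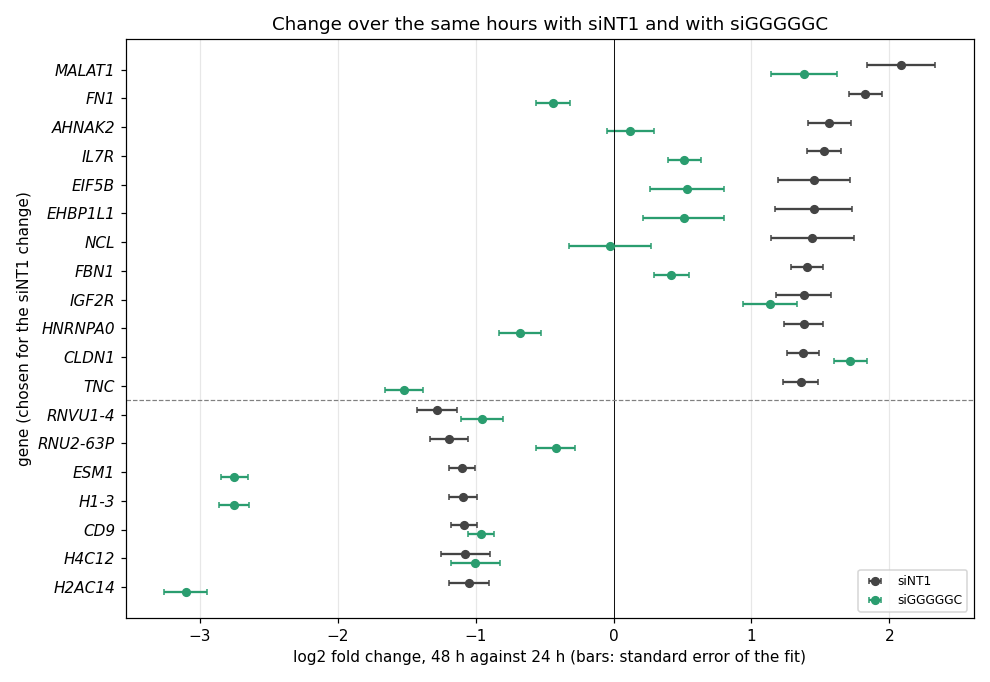
Log2 fold change of 48 h against 24 h with siNT1 (dark) and with siGGGGGC (green) for the 19 genes with the largest siNT1 changes, with the standard error of the fit as bars. FN1, HNRNPA0, TNC and NCL lie on opposite sides of 0, NCL with siGGGGGC at -0.03, while the 7 falls are negative with both.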

How the data were processed

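Total RNA of HeyA8 cells, depleted of ribosomal RNA, was sequenced in paired ends from 10 libraries in 5 groups of 2, grouped by the labels of siRNA and time. The deposited values are raw counts per gene that the authors made with HTSeq, on Ensembl gene models of hg38, after alignment with TopHat or STAR. The strand setting of the counting is not given in the sources used here. Of 58395 gene IDs in each count file, 98.9% were found in GENCODE release 44, from which symbols, positions, exon lengths and GC content were taken, and 0 entries named no gene. Tables of the authors' own comparisons (mean normalised count, log2 fold change, its error and statistic, p and adjusted p) were not used, and 0 columns belonged to samples outside the series.

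Counts were tested in R 4.3.3 with the quasi-likelihood test of edgeR 4.0.16 fitted jointly to the 10 libraries, 1 coefficient per group, with TMM factors and filterByExpr, with Benjamini-Hochberg adjustment over 16905 genes. Normalised counts are CPM values brought to the mean effective library size. SE is derived from the fit, as the size of the log2 fold change divided by the square root of the F statistic. Each group has 2 libraries, and the spread behind F is estimated jointly over the 10 libraries. Named are up to 12 called genes per direction with a mean normalised count of at least 500 and no overlap between the time points, and up to 4 genes with the lowest p from each of 39 gene lists, or the 2 most abundant where none passed. Genes, lists and motifs were chosen with earlier results of these data known. Counting error is small beside the spread between libraries for abundant genes, and a gene with few counts is measured poorly. Results were recomputed in 12 other ways, including DESeq2 1.42.0, and in 1 way added after the data were seen. The scripts were tested on simulated counts with known changes. The values of some genes that the naming rule selects are not reported here.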

Additional observations from a re-analysis of the deposited data

Results flagged for a closer look

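Of the 19 genes with the largest siNT1 changes, 11 had a change over time that differed between siNT1 and siGGGGGC by the interaction test of edgeR, with adjusted p below 0.05. The genes were chosen for their siNT1 change, which is part of the interaction contrast, and no share over all genes is given beside the count. The siNT1 change minus the siGGGGGC change, on the log2 scale, was 2.88 for TNC, 2.26 for FN1, 2.06 for HNRNPA0, 1.47 for NCL, 1.44 for AHNAK2, 1.01 for IL7R and 0.98 for FBN1 among the rises. Among the falls it was 2.06 for H2AC14, 1.66 for H1-3 and 1.65 for ESM1, which fell further with siGGGGGC, and -0.77 for RNU2-63P, which fell further with siNT1. The adjusted p of the NCL difference was 0.091 in DESeq2, 0.052 without 24 h replicate 1 and 0.057 without 24 h replicate 2. That of RNU2-63P was 0.052 without 24 h replicate 2, and its difference was -0.51 without 48 h replicate 1.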

How the results depend on the processing

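The siNT1 counts of called genes stayed within 1.5 times of 180 higher and 78 lower with the siNT1 libraries alone, with RLE size factors, without small structural RNAs, with the replicate block and with the length and GC offset. DESeq2 called 124 higher and 29 lower. Without a filter on low counts 295 were called higher and 119 lower, with 2425 and 728 past the adjusted p alone. With a mean count of at least 50, 120 and 27 were called, and for siGGGGGC 599 and 705. Against a log2 fold change of 1, 1 and 0 were called, and 383 and 317 for siGGGGGC. Leaving out 1 siNT1 library gave 82 to 304 called higher, 22 to 112 called lower, 338 to 2009 past the adjusted p and higher, and 132 to 1519 lower. All 145 named genes kept their direction in each leave-one-out fit, and 74 kept an adjusted p below 0.05 in all 4. The replicate block gave 172 called higher and 61 lower, with 1357 and 951 past the adjusted p. The labels do not say whether the replicate numbers pair the libraries. The replicate differences of 10 pairs of groups correlated by -0.386 to 0.144, with 1 above 0.1, which cannot settle it. Of the differences between siNT1 and siGGGGGC, those of CD9 (0.011 without a filter), H4C12 (0.058 without a filter, 0.088 without 24 h replicate 2 and 0.085 without 48 h replicate 1) and IGF2R (-0.27 without 48 h replicate 1) turned sign, none past the threshold. Over the leave-one-out fits the difference ran from -0.27 to 0.65 for IGF2R (the 0.65, without 48 h replicate 2, past the threshold) and from -0.22 to 0.088 for H4C12. The cause of these changes was not tested. Depth limits genes with few counts, most of all the lower calls.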
